A study of Homo sapiens with 16 samples.

Results

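Polycomb repressive complex 1 (PRC1) subunits were followed across 8 groups of arrays from HCC70 and MDA-MB-468. Both are established cell lines from human breast cancers of the basal-like type. The set named 9 subunit genes, and a gene was kept where the platform annotation gave an array transcript cluster that symbol and no other. By that rule 6 of the 9 could be described: the chromobox genes CBX2, CBX6 and CBX7, the ubiquitin ligase gene RING1, and the polyhomeotic genes PHC1 and PHC2. The annotation used here gave no cluster to CBX8 or RNF2, and the cluster of BMI1 carried a second symbol, so these 3 have no value. The 6 stand among 18417 genes that had a cluster of their own.

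Each of 4 treatments was set against a control, with 2 arrays a group. HCC70 cells carried shRNA against EZH2 (shEZH2), against scrambled shRNA set a. MDA-MB-468 cells carried shEZH2, against scrambled shRNA. HCC70 cells carried shRNA against EED (shEED), against scrambled shRNA set b, and HCC70 cells carried an EZH2 cDNA (titled fip EZH2), against an empty vector (plKO Puro). The scrambled controls are titled shCont, and the letters a and b are those of the HCC70 replicate labels. All cells of all 8 groups, controls included, had been infected with a vector, treated with polybrene and kept under puromycin. Which scrambled set belonged to which HCC70 knockdown is not stated outright in the labels, and the pairing used here follows the blocks of sample codes. The labels leave unstated whether the 2 arrays of a group are separate cultures, so the p-values measure the spread between these arrays, which may be technical.

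PRC1 and PRC2 are the main Polycomb complexes, which keep developmental genes silent. PRC2, with its methyltransferase EZH2 and its core subunit EED, methylates histone H3, and the chromobox proteins of canonical PRC1 bind that mark through a chromodomain. RING1 or RNF2, paired with a PCGF protein such as BMI1, ubiquitinates histone H2A, and the polyhomeotic proteins PHC1 and PHC2 join PRC1 particles through SAM domains. Variant PRC1 carries RYBP or YAF2 in place of a chromobox protein.

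The promoters of CBX6, CBX7 and PHC2 are shown. CBX6 was the measured subunit called under treatment, and PHC2 differed between the lines. CBX7 is the other chromobox gene of this set on the same chromosome and stayed near the floor. The sequences are RefSeq's (GRCh38.p14), 250 bases upstream of a gene start, on the minus strand in each case, and capitals mark the E-box letters CACGTG. The CBX6 window lies at chr22:38872217-38872466, the CBX7 window at chr22:39152681-39152930, and the PHC2 window at chr1:33431096-33431345, the first of 2 starts listed for PHC2.
CBX6: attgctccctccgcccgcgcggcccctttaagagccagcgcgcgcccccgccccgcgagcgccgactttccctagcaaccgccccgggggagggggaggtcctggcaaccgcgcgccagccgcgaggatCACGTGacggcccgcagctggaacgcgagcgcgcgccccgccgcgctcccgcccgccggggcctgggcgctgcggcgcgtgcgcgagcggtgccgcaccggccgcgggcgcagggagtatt
CBX7: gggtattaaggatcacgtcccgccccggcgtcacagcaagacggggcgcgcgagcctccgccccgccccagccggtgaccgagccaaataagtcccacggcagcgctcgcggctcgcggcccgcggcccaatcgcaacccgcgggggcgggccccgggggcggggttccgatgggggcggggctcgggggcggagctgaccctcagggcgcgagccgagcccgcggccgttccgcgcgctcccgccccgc
PHC2: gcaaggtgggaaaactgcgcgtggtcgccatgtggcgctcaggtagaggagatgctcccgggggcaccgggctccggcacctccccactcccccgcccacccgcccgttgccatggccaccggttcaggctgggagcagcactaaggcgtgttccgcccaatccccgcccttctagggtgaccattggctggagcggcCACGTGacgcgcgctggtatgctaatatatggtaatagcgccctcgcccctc
The CBX6 window held 45 CpG dinucleotides, the CBX7 window 41 and the PHC2 window 21, beside a median of 11 over 35116 promoter windows of the same length. CACGTG, which is its own reverse complement, occurred once in the CBX6 window and once in the PHC2 window shown, and 6.3% of all windows held it. The window of the second PHC2 start, which is not shown, held 0 matches to CACGTG, 36 CpG dinucleotides and 6 matches to GGGCGG. The GC-box letters GGGCGG, searched on both strands, occurred 4 times in CBX6, 8 times in CBX7 and 4 times in the PHC2 window shown, and 42.6% of all windows held them. A match is a description of the letters and not of a bound site.

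Signals are log2 values of robust multi-array averages (RMA) as deposited. The test took in a cluster if 2 or more of the 16 arrays reached a floor of log2 6, taken as a bound under which signal was not shown to be above background. Changes are treated minus control, with the standard error (SE) and adjusted p from limma, a linear model over all 16 arrays and 16175 tested clusters with the Benjamini-Hochberg adjustment, and a change was called at an adjusted p under 0.05. Array medians ran from 5.37 to 5.53 and duplicates correlated at r = 0.994 to 0.997. All 5 epithelial markers listed, EPCAM, CDH1, KRT8, KRT18 and KRT19, were above the floor in both lines, with line means of 10.85 to 12.36 in HCC70 and 9.42 to 12.57 in MDA-MB-468. The basal-like markers with a cluster, KRT5, KRT14, EGFR and VIM, were also above it in both lines. ESR1 and PGR, the hormone receptor genes of luminal cancers, and the leukocyte gene PTPRC stayed below the floor. Of 10 genes of other cell types with a cluster, CD68 and COL1A1 were above it. The 2 HCC70 scrambled sets differed from each other in 3677 clusters, 22.7% of those tested, so the choice of set matters for any HCC70 knockdown value.

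The targeted genes were read first. EZH2 had 8.50 and 8.58 in HCC70 shEZH2 arrays, against 10.01 and 10.00 in scrambled set a (change -1.47 ± 0.07 SE, limma adjusted p = 3.35e-07). In MDA-MB-468 it had 8.39 and 8.48 in shEZH2 arrays, against 10.07 and 10.14 in scrambled arrays (-1.67 ± 0.07, limma adjusted p = 2.56e-07). EED had 7.54 and 7.49 in shEED arrays, against 8.35 and 8.31 in scrambled set b (-0.82 ± 0.11, limma adjusted p = 0.000347). These 3 knockdowns lowered the gene named in their label, without overlap between groups. In shEED arrays EZH2 itself had 9.86 and 9.81, against 10.08 and 10.06 in set b (-0.24 ± 0.07, limma adjusted p = 0.0456), which no longer passed when any single array of the pair of groups was left out. In the overexpression arrays EZH2 had 10.20 and 10.27, against 9.94 and 9.94 with the empty vector, a change of 0.29 ± 0.07 that did not pass the threshold (limma adjusted p = 0.0961).

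Of the subunits measured, CBX6 alone was called in a treatment comparison. In HCC70 it fell under EZH2 knockdown and under EED knockdown and rose with the EZH2 cDNA, each time without overlap between treated and control arrays. Groups of 2 arrays can separate without a call: control sets a and b did so for CBX2, CBX6, RING1, PHC2 and PHC1. How many of all clusters separate in this way was not counted, so separation describes these arrays and is no support for a change. CBX6 encodes a chromobox protein of canonical PRC1, the subunit class that reads the PRC2 mark. None of the other 5 subunits passed the test in any of the 4 treatment comparisons.

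**Figure D1:**
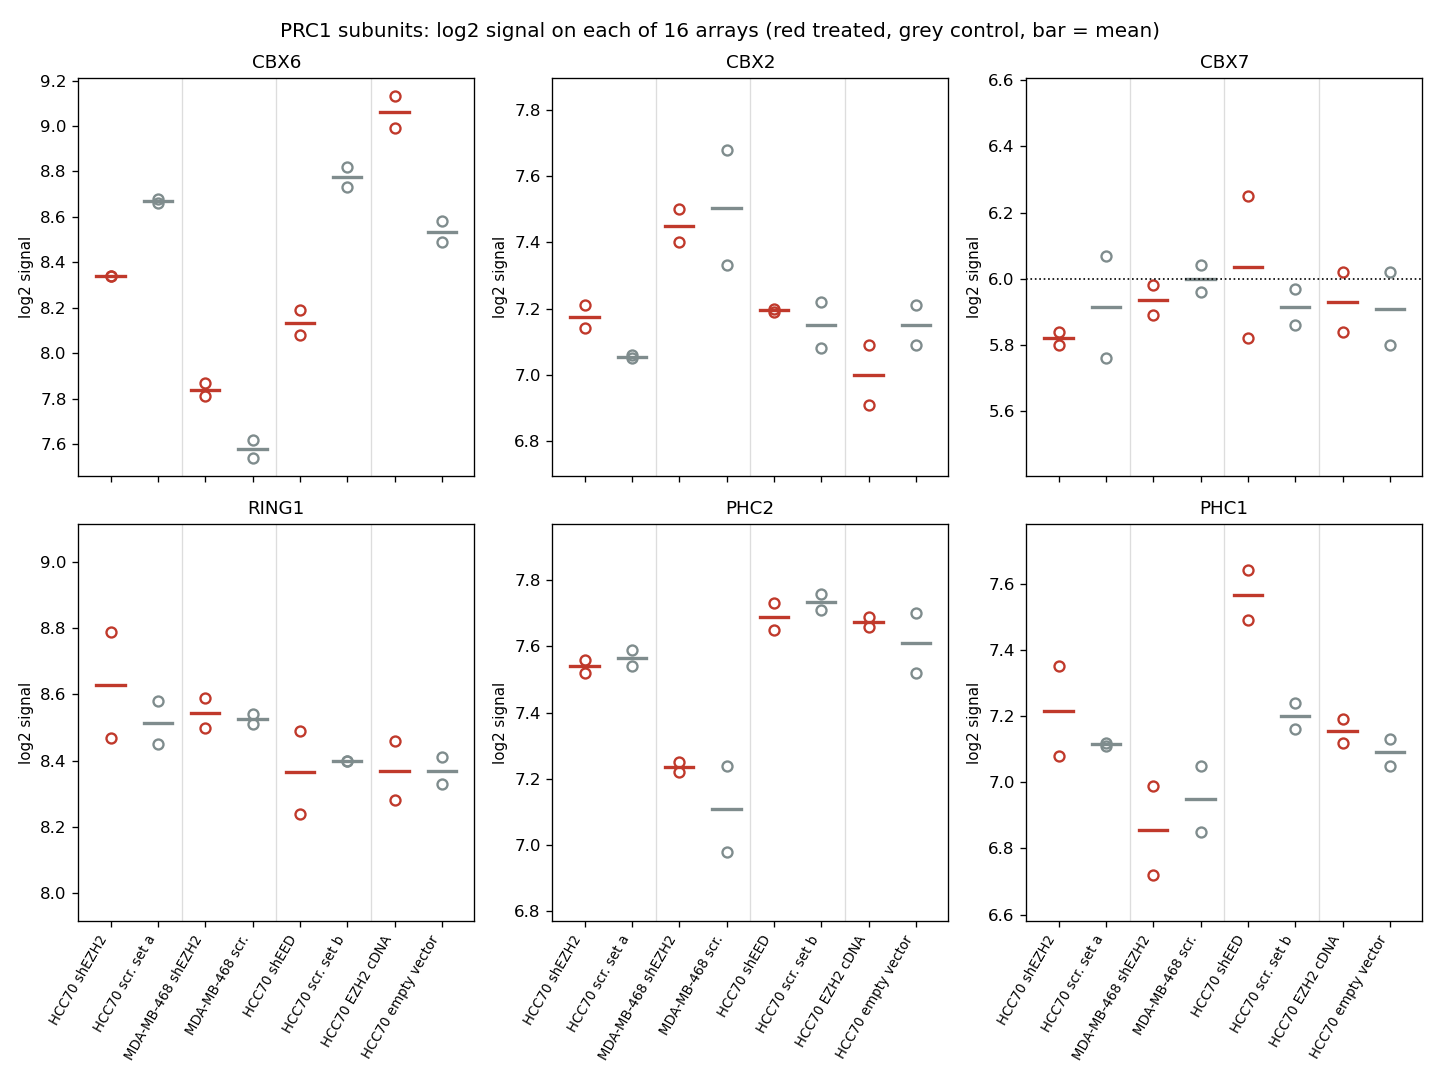
Log2 signal (y axis) of the 6 PRC1 subunits on each array (open circles), with the mean of each group of 2 as a bar, treated groups in red left of their control in grey; the dotted line in the CBX7 panel is the floor of log2 6. CBX6 lay apart from its control in all 4 pairs, though its MDA-MB-468 change was not called. CBX7 lay between 5.76 and 6.25 on all 16 arrays, and y axes differ between panels.

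In HCC70 shEZH2 arrays CBX6 had a log2 signal of 8.34 and 8.34, against 8.66 and 8.68 in scrambled set a. The change was -0.33 ± 0.08 (SE, n = 2 arrays each), a 1.26-fold fall with a limma adjusted p of 0.0204. Both knockdown arrays lay below every HCC70 control array, the lowest of which, with the empty vector, had 8.49. The call is a narrow one: leaving out 1 array at a time kept the change between -0.34 and -0.32, but the adjusted p rose above 0.05 without set a replicate 1 (0.0908), set a replicate 2 (0.126) or shEZH2 replicate 1 (0.0546). Of all tested clusters 11.4% were called in this comparison, 7.30% higher and 4.06% lower, and of the 6 subunits CBX6 alone was called, so 1 gene makes the share.

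In shEED arrays CBX6 had 8.08 and 8.19, against 8.82 and 8.73 in scrambled set b. It fell by 0.64 ± 0.08 on the log2 scale, 1.56-fold, with a limma adjusted p of 0.000267, and the call remained under all 15 alternatives tried, with changes from -0.70 to -0.53. These were the lowest CBX6 signals of any HCC70 group. The background of this comparison was 14.2% of clusters called, 6.63% higher and 7.53% lower, and CBX6 was again the 1 subunit of 6 that was called.

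With the EZH2 cDNA, CBX6 had 9.13 and 8.99, against 8.49 and 8.58 with the empty vector. The change was 0.52 ± 0.08, a 1.44-fold rise (limma adjusted p = 0.00949), in a comparison where 0.977% of clusters were called, 0.909% higher and 0.0680% lower. By p-value CBX6 ranked 48 among the 16175 tested clusters. Both cDNA arrays lay above every HCC70 control array, the highest of which, in scrambled set b, had 8.82. Against all 6 HCC70 control arrays, an alternative chosen after the data were seen, the rise was 0.40 and the falls were -0.32 with shEZH2 and -0.53 with shEED, all past the threshold. The rise kept its size but not its call without empty vector replicate 1 (0.48, adjusted p = 0.0849), cDNA replicate 1 (0.45, adjusted p = 0.137) or cDNA replicate 2 (0.59, adjusted p = 0.0516).

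In MDA-MB-468 the sign was the other way. CBX6 had 7.87 and 7.81 in shEZH2 arrays, against 7.54 and 7.62 in scrambled arrays. The groups did not overlap, and the change of 0.26 ± 0.08 lay just outside the threshold (limma adjusted p = 0.0635, 95% interval 0.09 to 0.43), where 8.30% of clusters were called, 2.73% higher and 5.57% lower. By limma 0 of the 6 subunits were called there, and at an unadjusted p under 0.05 the count was 1, CBX6, beside 25.8% of all clusters. With the floor raised to log2 7 it passed (adjusted p = 0.0491), as it did after a repeated quantile normalization (0.30, adjusted p = 0.0311). The change under EZH2 knockdown differed between the lines by -0.59 ± 0.11 (HCC70 minus MDA-MB-468, limma interaction contrast, adjusted p = 0.00693), a test in which 13.2% of clusters were called, 8.97% higher and 4.27% lower in HCC70. That difference passed under all 17 alternatives, with adjusted p from 0.00192 to 0.0325.

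**Figure D2:**
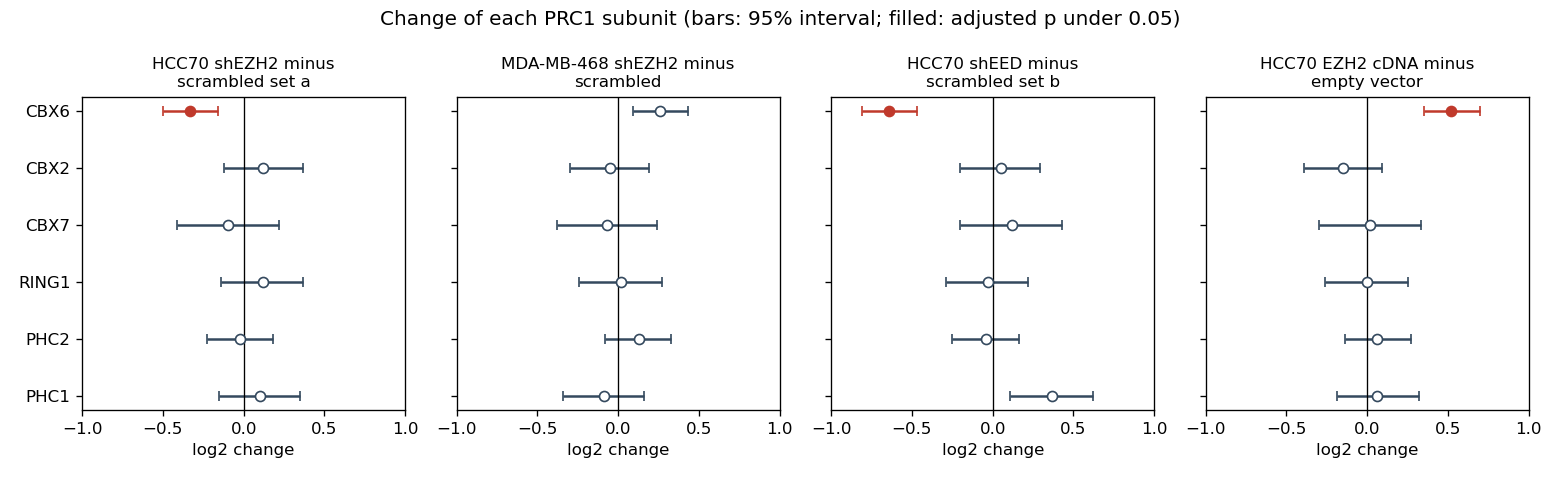
Log2 change (x axis) of each PRC1 subunit, treated minus control, in the 4 treatment comparisons, with 95% intervals from limma; filled red points had an adjusted p under 0.05. CBX6 lies at -0.33, 0.26, -0.64 and 0.52 from left to right, and the other 5 subunits lie closer to 0 with open points.

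The fall of CBX6 in HCC70 was -0.33 with shEZH2 and -0.64 with shEED. The test of the difference, each knockdown against its own scrambled set, gave 0.31 ± 0.11 (limma adjusted p = 0.131, 95% interval 0.06 to 0.55), and 6.31% of clusters were called in it, 4.35% higher and 1.96% lower, with 0 of the 6 subunits by limma and 1, CBX6, at an unadjusted p under 0.05, beside 21.6% of all clusters. The order of the CBX6 group means was EZH2 cDNA at 9.06, scrambled set b at 8.77, scrambled set a at 8.67, empty vector at 8.54, shEZH2 at 8.34 and shEED at 8.13, all in HCC70, then MDA-MB-468 shEZH2 at 7.84 and MDA-MB-468 scrambled at 7.58. No 2 neighbours in that order had overlapping arrays. The 3 HCC70 control groups differed among themselves by less than the test could call, with set a minus set b at -0.10 ± 0.08 (limma adjusted p = 0.373) and both sets minus the empty vector at 0.18 ± 0.07 (adjusted p = 0.108).

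**Figure D3:**
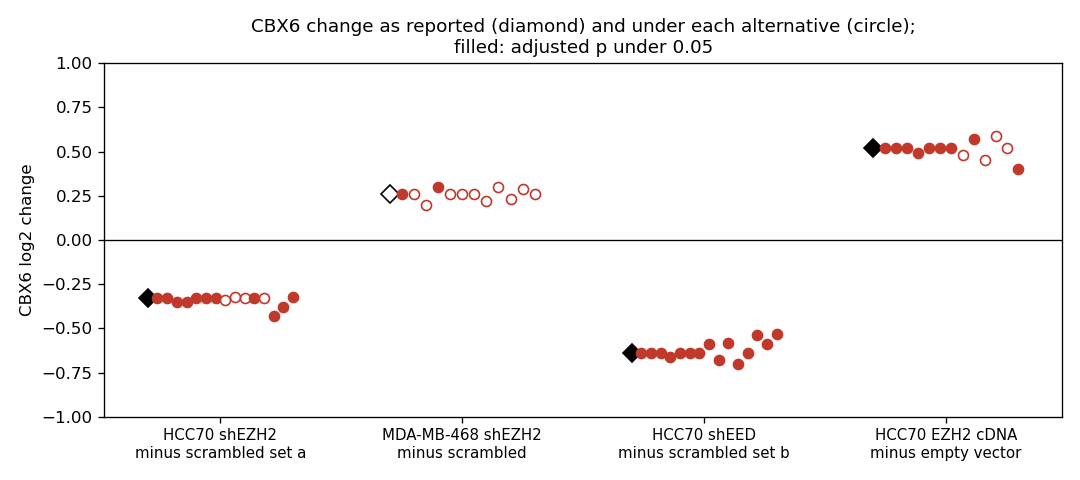
CBX6 log2 change (y axis) in each treatment comparison as reported (black diamond) and under each alternative setting (circles, in no set order); filled symbols had an adjusted p under 0.05. Every setting kept the sign, from -0.43 to -0.32 with HCC70 shEZH2, 0.20 to 0.30 with MDA-MB-468 shEZH2, -0.70 to -0.53 with shEED and 0.40 to 0.59 with the EZH2 cDNA.

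Over the 12 HCC70 arrays, the genes whose signals most resembled that of CBX6 were the desmoglein gene DSG2 (Pearson r = 0.962), the metalloprotease gene ADAM9 (0.955) and EPS8L1 (0.948), among 11144 genes ranked. The correlation is a description, since the arrays share groups and treatments. The HCC70 changes and adjusted p-values of these genes come from the arrays that the ranking used, so they are no separate support for a likeness. With shEED DSG2 was at -0.23 (limma adjusted p = 0.0553), ADAM9 changed by -0.55 (adjusted p = 0.00159) and EPS8L1 by -0.55 (adjusted p = 0.00851). In MDA-MB-468 shEZH2 arrays, which the ranking did not use, DSG2 fell by 0.33 (limma adjusted p = 0.0197), with the sign opposite to that of CBX6. ADAM9 was at 0.02 there and EPS8L1 at -0.00. With the cDNA DSG2 was at 0.11, ADAM9 at 0.24 and EPS8L1 at 0.51, none past the threshold. With shEZH2 in HCC70 DSG2 was at -0.14, ADAM9 at -0.18 and EPS8L1 at -0.11, none of them past the threshold.

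CBX2 and CBX7 are the other chromobox genes measured. CBX2 had 7.14 and 7.21 in HCC70 shEZH2 arrays, against 7.05 and 7.06 in set a (change 0.12, 95% interval -0.12 to 0.37). It had 7.50 and 7.40 in MDA-MB-468 shEZH2 arrays, against 7.68 and 7.33 in scrambled arrays (-0.05, 95% interval -0.30 to 0.19). Only the first of these pairs was without overlap, and neither change passed the test. In shEED arrays CBX2 had 7.19 and 7.20, against 7.22 and 7.08 in set b (0.05, 95% interval -0.20 to 0.29). With the EZH2 cDNA it had 6.91 and 7.09, against 7.09 and 7.21 with the empty vector (-0.15, 95% interval -0.39 to 0.09). Limma adjusted p-values for CBX2 ran from 0.532 to 0.854 over the 4 comparisons.

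CBX7, known for repressing the CDKN2A locus, reached the floor on 5 of 16 arrays, so a lower level could not be told from background. Its signal was 5.80 and 5.84 with HCC70 shEZH2, against 5.76 and 6.07 in set a, and 5.82 and 6.25 with shEED, against 5.86 and 5.97 in set b. It was 5.89 and 5.98 with MDA-MB-468 shEZH2, against 5.96 and 6.04 in scrambled arrays, and 6.02 and 5.84 with the cDNA, against 5.80 and 6.02 with the empty vector. The 2 shEED arrays were farther apart than any CBX7 group differed from another. No neighbouring groups in the order of CBX7 means were separate, and its changes ran from -0.10 to 0.12. CDKN2A itself, a textbook target of PRC1 that encodes cell cycle inhibitors, changed by -0.02 with HCC70 shEZH2 (limma adjusted p = 0.927), -0.11 with MDA-MB-468 shEZH2 (0.398), -0.07 with shEED (0.61) and 0.03 with the EZH2 cDNA (0.942).

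RING1, the ubiquitin ligase subunit, had the narrowest range of group means among the members above the floor, 0.26 on the log2 scale. It had 8.79 and 8.47 in HCC70 shEZH2 arrays, against 8.58 and 8.45 in set a, and 8.49 and 8.24 in shEED arrays, against 8.40 and 8.40 in set b. In MDA-MB-468 it had 8.59 and 8.50 with shEZH2, against 8.54 and 8.51 in scrambled arrays. With the EZH2 cDNA it had 8.46 and 8.28, against 8.41 and 8.33 with the empty vector. The groups overlapped in all 4 pairs, and the change farthest from 0 was 0.12 ± 0.12 with HCC70 shEZH2 (limma adjusted p = 0.575, 95% interval -0.14 to 0.37). A second RING1 cluster tracked the first at r = 0.996 over 16 arrays. Whether the clusters share probe sequences was not tested, so the second is not taken as a separate measurement.

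Neither polyhomeotic gene of the set was called in a treatment comparison, and a difference between PHC1 and PHC2 was not tested. PHC1 had 7.49 and 7.64 in shEED arrays, above all other 14 arrays, against 7.24 and 7.16 in set b. The change of 0.37 ± 0.12, 1.29-fold, lay just outside the threshold (limma adjusted p = 0.0557, 95% interval 0.11 to 0.62). It passed against set a (0.45, adjusted p = 0.00999), against both sets (0.41, adjusted p = 0.0101), with 1-symbol clusters only (adjusted p = 0.0341) and with a floor of log2 7 (adjusted p = 0.0443), and did not pass without any 1 of the 4 arrays (adjusted p from 0.103 to 0.323). A second cluster with the PHC1 symbol tracked it (r = 0.984) and gave 0.36 (adjusted p = 0.0763). RefSeq lists a pseudogene, PHC1P1, and the array's share of signal from it was not tested.

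With HCC70 shEZH2, PHC1 had 7.08 and 7.35, against 7.12 and 7.11 in set a (0.10, limma adjusted p = 0.624), so these groups overlapped. It had 6.99 and 6.72 in MDA-MB-468 shEZH2 arrays, against 6.85 and 7.05 in scrambled arrays, and 7.19 and 7.12 with the cDNA, against 7.13 and 7.05 with the empty vector. The shEZH2 change minus the shEED change of PHC1 was -0.26 ± 0.16 (limma adjusted p = 0.394), and -0.35 (adjusted p = 0.0383) where both scrambled sets served both knockdowns. PHC2 lay between 7.52 and 7.76 on all 12 HCC70 arrays and between 6.98 and 7.25 on the 4 MDA-MB-468 arrays. Its changes ran from -0.04 to 0.13 with limma adjusted p from 0.429 to 0.904.

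Between the control levels of the lines, scrambled HCC70 (sets a and b) against scrambled MDA-MB-468, 3 of the 6 subunits differed, 2 higher and 1 lower in HCC70. Of all tested clusters 69.2% differed there, 32.1% higher and 37.1% lower, so 3 of 6 is no result about the subunits as a set. CBX6 averaged 8.72 in HCC70 and 7.58 in MDA-MB-468, a difference of 1.14 ± 0.07 or 2.20-fold (limma adjusted p = 3e-08). PHC2 averaged 7.65 in HCC70 and 7.11 in MDA-MB-468 (0.54 ± 0.08, adjusted p = 8.69e-05). CBX2 averaged 7.10 in HCC70 and 7.50 in MDA-MB-468 (-0.40 ± 0.10, adjusted p = 0.00289), and was at -0.23 (adjusted p = 0.0658) without MDA-MB-468 scrambled replicate 1, the array at 7.68. RING1 (-0.07), CBX7 (-0.08) and PHC1 (0.21, adjusted p = 0.0821) did not pass. EZH2 differed by -0.07 (adjusted p = 0.325) and EED by -0.46 (adjusted p = 0.000753), lower in HCC70.

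**Figure D4:**
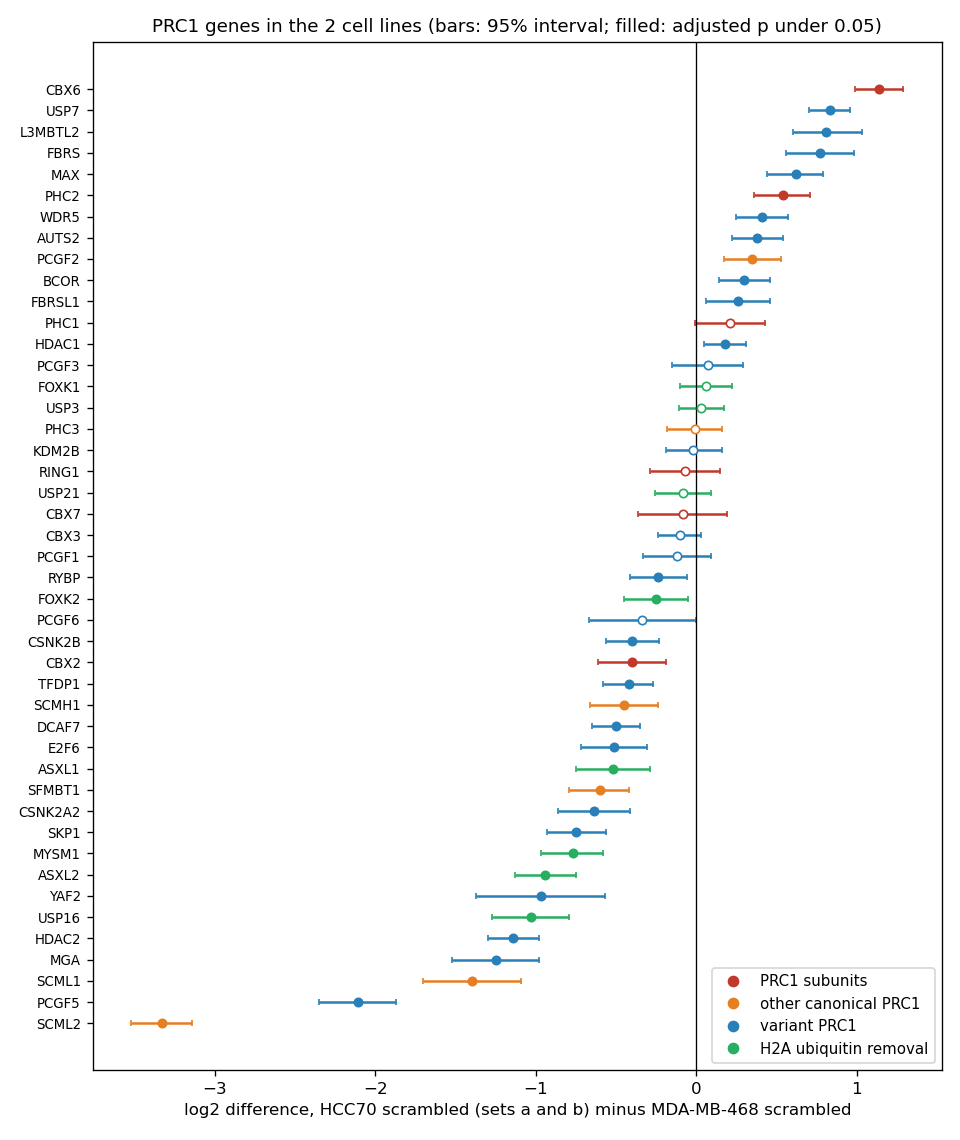
Log2 difference (x axis) between scrambled HCC70 (sets a and b) and scrambled MDA-MB-468, coloured by list. The 6 PRC1 subunits and the tested genes of the other PRC1 and H2A ubiquitin removal lists are shown, with 95% intervals from limma. Filled points had an adjusted p under 0.05. CBX6 at 1.14 stands at the top and SCML2 at -3.33, from a HCC70 signal below the floor, at the bottom.

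Other genes were read from lists of canonical PRC1, variant PRC1 and H2A ubiquitin removal genes, the last of which are not PRC1 subunits. The list names are those used here and do not show that each listed gene encodes a subunit. Of 6 other canonical PRC1 genes tested, 1 rose and 0 fell with HCC70 shEZH2, 0 rose and 1 fell with MDA-MB-468 shEZH2, 1 rose and 0 fell with shEED, and 0 were called with the cDNA. Of 25 variant PRC1 genes, 1 rose with HCC70 shEZH2, 2 fell with MDA-MB-468 shEZH2, and 0 were called with shEED or the cDNA. Of 8 genes for H2A ubiquitin removal, limma called 0 in each of the 4 comparisons. At an unadjusted p under 0.05 those zeros became 1, 2, 1 and 0 of 8 ubiquitin removal genes with HCC70 shEZH2, MDA-MB-468 shEZH2, shEED and the cDNA. For the variant genes they became 2 of 25 with shEED and 3 of 25 with the cDNA, and for the canonical genes 0 of 6 with the cDNA. Of all tested clusters 26.1%, 25.8%, 27.4% and 10.4% had such a p in the 4 comparisons, so these counts lie near or below the background. With at most 2 genes called a list, the shares are no result about the lists. With HCC70 shEZH2 the median change was 0.039 over the 6 subunits, 0.064 over the other canonical genes, 0.036 over the variant genes and 0.008 over all tested clusters. With shEED the medians were 0.006, 0.126, 0.074 and 0.024 in the same order.

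PCGF5, which defines one of the variant PRC1 complexes, rose with HCC70 shEZH2. It had 7.26 and 7.07 in shEZH2 arrays, against 6.50 and 6.15 in set a (0.84 ± 0.13, 1.79-fold, limma adjusted p = 0.00144). Against set b the change was 0.57 (adjusted p = 0.0062). In MDA-MB-468 it had 8.13 and 8.32 in shEZH2 arrays, against 8.42 and 8.71 in scrambled arrays (-0.34, adjusted p = 0.116). The change differed between the lines by 1.18 ± 0.18 (limma interaction contrast, adjusted p = 0.00214). With shEED PCGF5 had 6.71 and 6.75, against 6.62 and 6.56 in set b (0.14, adjusted p = 0.559), and with the cDNA 6.91 and 6.95, against 6.48 and 6.49 with the empty vector (0.45, adjusted p = 0.168). The HCC70 knockdown and cDNA arrays all lay above their controls, but the calls moved with the controls used. The shEED change passed against set a (0.40, adjusted p = 0.0265) and the cDNA change against all 6 HCC70 control arrays (0.46, adjusted p = 0.028), while the shEZH2 call ended when its 4 arrays were fitted alone (adjusted p = 0.0819). The shEZH2 change minus the shEED change was 0.71 ± 0.18 (adjusted p = 0.0381), and 0.17 (adjusted p = 0.467) with the sets exchanged. That difference no longer passed in 6 of 8 fits without 1 array (0.53 to 0.88, adjusted p up to 0.152), with no floor (0.0736) or with arrays centred on their medians (0.0769).

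SCML1, of the sex comb on midleg-like family, was called higher in both HCC70 knockdowns. It had 6.74 and 6.70 in shEED arrays, against 5.81 and 5.86 in set b (0.89 ± 0.16, limma adjusted p = 0.00323), and 5.82 and 6.26 in shEZH2 arrays, against 5.28 and 5.38 in set a (0.71 ± 0.16, adjusted p = 0.0154). All 4 of these control arrays lay below the floor, so against the floor the rise was at least 1.65-fold with shEED. The lower shEZH2 array, at 5.82, also lay below it, so no such bound is given for shEZH2. The signals of the sets differed from each other (-0.50, set a minus set b, limma adjusted p = 0.041), but below the floor, where signal was not shown to be above background. Against set b the shEZH2 change was 0.20 (limma adjusted p = 0.374). The shEZH2 call also ended without set a replicate 1 (0.66, adjusted p = 0.1), set a replicate 2 (0.76, adjusted p = 0.067) or shEZH2 replicate 2 (0.49, adjusted p = 0.0852). In MDA-MB-468 SCML1 had 6.33 and 6.57 in shEZH2 arrays, against 6.84 and 7.12 in scrambled arrays (-0.53, adjusted p = 0.0617). The SCML1 change differed between the lines by 1.24 ± 0.23 (limma interaction contrast, adjusted p = 0.00596). In HCC70 both set a arrays and the lower shEZH2 array in that contrast lay below the floor.

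In MDA-MB-468 SCML2, RYBP and HDAC1 were called lower with EZH2 knockdown. SCML2, a Polycomb protein of the same family as SCML1, had 6.75 and 6.91 in shEZH2 arrays, against 7.30 and 7.42 in scrambled arrays (-0.53 ± 0.10, limma adjusted p = 0.00994). In HCC70 it lay between 3.90 and 4.22 on every array, below the floor, so a fall there could not be told from background. RYBP, which stimulates H2A ubiquitination by variant PRC1, had 7.43 and 7.53 in shEZH2 arrays, against 7.87 and 8.15 in scrambled arrays (-0.54 ± 0.09, adjusted p = 0.00686). The histone deacetylase gene HDAC1 had 11.41 and 11.49, against 11.81 and 11.75 (-0.33 ± 0.07, adjusted p = 0.0158). When the 4 arrays were fitted alone, none of these calls remained (limma adjusted p = 0.151 for SCML2, 0.17 for RYBP and 0.228 for HDAC1). Without scrambled replicate 2 all 3 calls ended, with adjusted p = 0.101 for SCML2, 0.0741 for RYBP and 0.0696 for HDAC1. Those of SCML2 (0.0603) and HDAC1 (0.066) also ended without shEZH2 replicate 1, and that of HDAC1 without scrambled replicate 1 (0.0502).

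**Figure D5:**
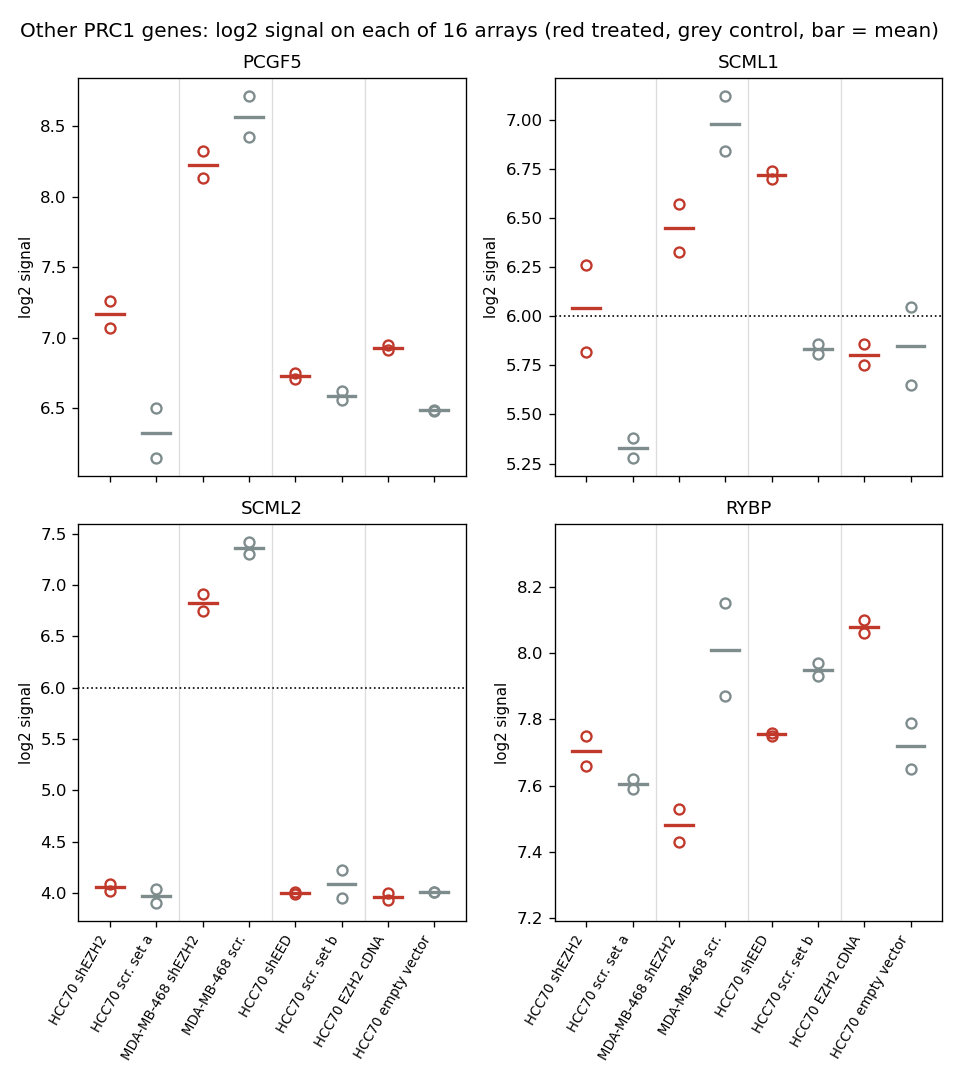
Log2 signal (y axis) of PCGF5, SCML1, SCML2 and RYBP on each array (open circles) with group means as bars, treated groups in red left of their control in grey; the dotted line in the SCML1 and SCML2 panels is the floor of log2 6 and y axes differ between panels. PCGF5 and SCML2 lay higher on every MDA-MB-468 array than on any HCC70 array. The SCML1 signal lay above that of its control in both HCC70 knockdowns, though the lower shEZH2 array, at 5.82, was below the floor.

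The canonical partners PCGF2 and PHC3 were not called in any treatment. PCGF2, the BMI1 paralogue, changed by -0.28 with HCC70 shEZH2 (limma adjusted p = 0.0779), -0.05 with MDA-MB-468 shEZH2, 0.13 with shEED and 0.08 with the cDNA. PHC3, the other polyhomeotic gene, changed by 0.05, -0.17, 0.18 and 0.07 in the same order (adjusted p from 0.225 to 0.871).

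Several other PRC1 and H2A ubiquitin removal genes also differed between the scrambled lines, in both directions. SCML2 averaged 4.03 in HCC70, below the floor, and 7.36 in MDA-MB-468 (limma adjusted p = 1.87e-11), at least 2.56-fold lower in HCC70 when set against the floor. SCML1 averaged 5.59 in HCC70, also below the floor, and 6.98 in MDA-MB-468 (adjusted p = 2.46e-06), at least 1.97-fold lower in HCC70. PCGF5 averaged 6.46 in HCC70 and 8.57 in MDA-MB-468, 4.31-fold lower in HCC70 (adjusted p = 8.49e-09). The deubiquitinase gene USP7 was higher in HCC70 (0.83, adjusted p = 1.33e-07). MGA (-1.25), HDAC2 (-1.14), ASXL2 (-0.94) and the H2A deubiquitinase gene USP16 (-1.03) were lower there. In all, 1 of 6 other canonical genes was higher and 4 lower in HCC70, as were 9 and 11 of 25 variant genes and 0 and 5 of 8 ubiquitin removal genes, beside the 69.2% of all clusters that differed.

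The HCC70 scrambled sets, set a minus set b, did not differ in any of the 6 subunits by the limma test, and at an unadjusted p under 0.05 the count was also 0, beside 36.5% of all clusters. Of the other lists 3 of 6 canonical, 5 of 25 variant and 4 of 8 ubiquitin removal genes were lower in set a and 0 were higher, beside 15.3% of all clusters lower and 7.41% higher. The H2A deubiquitinase gene MYSM1 averaged 7.84 in set a and 8.68 in set b (-0.84 ± 0.10, limma adjusted p = 0.000187). BCOR (-0.40), of a variant complex, SFMBT1 (-0.42), SCMH1 (-0.42), RYBP (-0.35), TFDP1 (-0.28), FOXK1 (-0.33) and USP16 (-0.50) also passed, with adjusted p from 0.00674 to 0.0307. Of the 4 fits without 1 array, the call ended in 4 for SCMH1, RYBP, TFDP1 and FOXK1, in 3 for SFMBT1 and USP16 and in 2 for BCOR, and in 0 for MYSM1. In both scrambled sets together minus the empty vector, limma called 0 of the 6 subunits, with 1 at an unadjusted p under 0.05, CBX6, beside 4198 of 16175 clusters. MYSM1 was the 1 listed gene called there (-0.36, adjusted p = 0.0236, ended in 5 of 6 fits without 1 array), where 10.9% of clusters were called, 6.52% higher and 4.36% lower.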

How the data were processed

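Total RNA of 16 samples in 8 groups of 2 was labelled with biotin and measured on arrays. The authors' deposited table holds a log2 signal for each transcript cluster on each array, from RMA in Affymetrix Expression Console per the submitters' processing notes, with no version or genome build stated. RMA narrows differences of dim clusters. Groups were taken from sample titles. Of 33297 clusters, 19460 had 1 symbol in the platform annotation, 1754 several and 12083 none, and only those with 1 were named. Where a gene had more than 1 such cluster, the brightest on average over the 16 arrays stood for it. Clusters at log2 6 or above on at least 2 arrays were tested (16175; 17122 were not). limma 3.58.1 in R 4.3.3 fitted 8 group means (8 residual and 3.69 prior degrees of freedom), and contrasts were two-sided with Benjamini-Hochberg adjustment over all tested clusters. The fit was also run on simulated data with independent noise, a check of the code and not of these results. An array gives no read depth, and the number of arrays limits the precision. The members and gene lists were chosen with earlier results of these data known. Named genes are the members, EZH2, EED, CDKN2A, PCGF2, PHC3, and at most 8 called list genes a comparison by p. No batch labels were given. Replicate numbers are shared by groups, but nothing says that they mark a shared culture. Alternatives covered the floor, normalization, symbols, variance trend, replicate block, left-out arrays and control sets.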

Additional observations from a re-analysis of the deposited data

Results flagged for a closer look

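For CBX6 the change under EZH2 knockdown in HCC70 minus that in MDA-MB-468 was -0.59. Besides CBX6 and SCML2, this limma interaction contrast called 5 other PRC1 genes, of which SCML1 lay mostly below the floor in its HCC70 arrays. By list, it called 1 of 6 subunits and 2 of 6 other canonical genes, SCML2 among them. Of 25 variant genes it called 3 higher and 1 lower. Of 8 ubiquitin removal genes it called 0, and 3 had an unadjusted p under 0.05, beside 29.6% of all clusters. Beside the 13.2% of all tested clusters called, these counts are no result about PRC1 genes as a set. The difference was 1.24 for SCML1 and 1.18 for PCGF5, each rising in HCC70 with a change below 0 in MDA-MB-468. SCML1 lay below the floor on both set a arrays and on the lower shEZH2 array (5.82), so the HCC70 part of its value is uncertain. For RYBP, which fell in MDA-MB-468, the difference was 0.64. SCML2 gave 0.61, but it lay below the floor on all HCC70 arrays, so this value shows its fall in MDA-MB-468 and does not test a difference between the lines. For PCGF3, of another variant complex, it was 0.66 (0.25 in HCC70 and -0.41 in MDA-MB-468, adjusted p = 0.0222), and for PCGF1 it was -0.52 (-0.25 in HCC70 and 0.27 in MDA-MB-468, adjusted p = 0.0476), with neither single change past the threshold. Against scrambled set b the differences of RYBP (0.29, adjusted p = 0.164), PCGF3 (0.27, adjusted p = 0.286) and PCGF1 (-0.45, adjusted p = 0.0723) did not pass, while those of CBX6, PCGF5 and SCML1 did. In 8 fits without 1 array each, the PCGF1 difference no longer passed in 7 (-0.72 to -0.33, adjusted p up to 0.156) and that of PCGF3 in 4 (0.52 to 0.80, adjusted p up to 0.0903). PCGF1 also did not pass with no floor (adjusted p = 0.0882) or with arrays centred on their medians (-0.48, adjusted p = 0.0876), nor PCGF3 against both scrambled sets (0.47, adjusted p = 0.0643). HCC70 set a and set b themselves differed for RYBP (-0.35, adjusted p = 0.0208) and PCGF3 (-0.39, adjusted p = 0.0316), and the part of that in these values was not tested.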

How the results depend on the processing

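The sign of the CBX6 change was kept under every alternative tried in the 4 treatment comparisons and in the difference between the lines. From the 4 arrays of a comparison alone, without the shared spread, CBX6 was at -0.33 with HCC70 shEZH2 (adjusted p = 0.154) and 0.52 with the cDNA (adjusted p = 0.272), so the numbers of subunits called by limma were 0 and 0 (1 each at an unadjusted p under 0.05), and 2 with shEED, PHC1 being the second. The clusters called were then 276 with HCC70 shEZH2, 21 with MDA-MB-468 shEZH2, 4439 with shEED and 0 with the cDNA by limma, where 1405 had an unadjusted p under 0.05. CBX6 passed in MDA-MB-468, making 1 subunit called, when the floor was raised to log2 7 (0.26) and after a repeated quantile normalization (0.30). Subunits called with shEED were 2 with a floor of log2 7, 1-symbol clusters only, the other scrambled set, both sets, or all 6 HCC70 control arrays, and for shEZH2 minus shEED 1 was called with both sets. With no floor 848 clusters were called with MDA-MB-468 shEZH2 and 88 with the cDNA. Centring each array on its median gave 88 with the cDNA, 677 for shEZH2 minus shEED and 1158 for scrambled minus empty vector. With the other scrambled set the clusters called were 4325 (HCC70 shEZH2), 5940 (shEED) and 6843 (shEZH2 minus shEED), with both sets 3048, 4465 and 5169, and against all 6 HCC70 control arrays (chosen after seeing the data) 3812 (shEZH2), 4149 (shEED) and 646 (cDNA). Scrambled minus empty vector gave 4022 with set a alone and 307 with set b alone, and MYSM1 there was 0.06 with set b alone, against -0.36 with both. The cause of these shifts was not tested.

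Leaving out 1 array at a time, CBX6 ran from -0.34 to -0.32 with HCC70 shEZH2 and from 0.45 to 0.59 with the cDNA, with 0 to 1 subunit called in each. Clusters called ran from 688 to 1977 with HCC70 shEZH2, 231 to 1552 with MDA-MB-468 shEZH2, 1013 to 1128 with shEED and 14 to 97 with the cDNA. They ran from 921 to 2633 for the difference between the lines, 461 to 1522 for shEZH2 minus shEED, 1604 to 2040 for set a minus set b and 822 to 1077 for scrambled minus empty vector. The deviations of same-numbered arrays from their group means correlated at 0.077, -0.023, -0.002 and 0.002 in the 4 treatment comparisons. These values show little shared effect of the replicate number, and cannot tell whether same-numbered samples were handled together. A fit with the replicate number as a replicate block gave 1965, 1500, 2483 and 145 clusters called. CBX6 was then at -0.33, 0.26, -0.64 and 0.52, on the same side of the threshold. The block brought PCGF2 with HCC70 shEZH2 (-0.28, adjusted p = 0.035), SCML1 (-0.53, adjusted p = 0.0346) and PCGF3 (-0.41, adjusted p = 0.0353) with MDA-MB-468 shEZH2, and PCGF2 for shEZH2 minus shEED (-0.41, adjusted p = 0.0448) past it, and ended no call of a named gene. With 2 arrays a group, and signals under the floor for CBX7, SCML1 and SCML2 in HCC70, small changes could not be resolved.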
